A study of Mus musculus with 6 samples.

Results

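The transcripts described here encode secondary granule proteins, also called specific granule proteins, of neutrophils: Camp, Ngp, Ltf, Lcn2, Chil3, Lyz2, Cd177 and Olfm4. These 8 genes were chosen by name from the 28987 genes of the deposited expression table, and each was found there under 1 Ensembl identifier. The choice was made with earlier results of these data known, so comparisons of the members with all genes are descriptions. All groups came from the bone marrow of C57BL/6 mice in which a clone with mutant CBL and RUNX1 models myelodysplastic syndrome, and in each group the mutant cells were sorted by flow cytometry. The groups were stem and progenitor cells (HSCPs) enriched through CD117 with vehicle (1 library) or Mdivi-1 (1 library), and Ly6G+ myeloid cells with vehicle (2 libraries) or Mdivi-1 (2 libraries). Mdivi-1 is a compound described as blocking Drp1, the GTPase of mitochondrial fission. For the alleles, the mice's age, and the dose and duration of Mdivi-1, details were not given in the sources used here. Which mouse gave which library is not in the labels, and the p-values rest on library-to-library spread, which may be technical.

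Neutrophils load their granules in the order in which the proteins are made. Primary (azurophil) granule proteins such as myeloperoxidase are made by promyelocytes, specific granule proteins by myelocytes and metamyelocytes, and tertiary (gelatinase) granule proteins later still. The transcription factor C/EBP epsilon, encoded by Cebpe, is known to be required for specific granule genes. PU.1 and some other C/EBP factors already act earlier in the lineage. Camp encodes the cathelicidin antimicrobial peptide, Ngp a cystatin-like neutrophilic granule protein related to the cathelicidins, and Ltf the iron-binding lactoferrin. Lcn2 encodes lipocalin 2, which captures bacterial siderophores, and Chil3 a chitinase-like lectin. Lyz2 encodes lysozyme M, which is also made by monocytes and macrophages, Cd177 a surface glycoprotein of neutrophils, and Olfm4 olfactomedin 4, known in a subset of neutrophils.

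Camp, Ngp and Ltf lie within 1.2 Mb of chromosome 9 (mm10, GENCODE M21). Camp spans 109847379 to 109849617, Ngp 110419747 to 110423012 and Ltf 111019271 to 111042767. The other members lie on chromosomes 2 (Lcn2), 3 (Chil3), 10 (Lyz2), 7 (Cd177) and 14 (Olfm4). Promoter windows of RefSeq (GRCm38.p6, the assembly of mm10) were matched by symbol for 8 of 8 members and searched on both strands, from 250 bases before to 50 bases after the RefSeq start. A C/EBP-type element, TTNNGNAA, was present in 7 of 8 windows, against 40.7% of all 32851 windows. The PU.1 core AGGAAG was present in 6 of 8, against 35.4%, and the GATA core AGATAA in 2 of 8, against 11.2%. Camp was the member without a match to TTNNGNAA in its window, and it held 2 matches to AGGAAG. A match is a string of letters and not a measured binding site. The 250 bases before the start are printed below for the chromosome 9 genes, for Lcn2 and for Chil3, because these genes differ in how their levels stood under Mdivi-1. Each is given 5′ to 3′ on the gene's strand, Camp from chr9:109849457-109849706 (minus), Ngp from chr9:110419558-110419807 (plus), Ltf from chr9:111019042-111019291 (plus), Lcn2 from chr2:32387740-32387989 (minus) and Chil3 from chr3:106167565-106167814 (minus). Capitals mark matches to TTNNGNAA or AGGAAG on either strand, and in Chil3 a match to each lies side by side in 1 run of capitals.
Camp: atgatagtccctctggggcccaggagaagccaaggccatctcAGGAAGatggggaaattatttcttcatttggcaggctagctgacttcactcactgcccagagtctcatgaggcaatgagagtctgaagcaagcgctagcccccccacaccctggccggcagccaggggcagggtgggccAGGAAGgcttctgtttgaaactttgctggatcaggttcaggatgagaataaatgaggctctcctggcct
Ngp: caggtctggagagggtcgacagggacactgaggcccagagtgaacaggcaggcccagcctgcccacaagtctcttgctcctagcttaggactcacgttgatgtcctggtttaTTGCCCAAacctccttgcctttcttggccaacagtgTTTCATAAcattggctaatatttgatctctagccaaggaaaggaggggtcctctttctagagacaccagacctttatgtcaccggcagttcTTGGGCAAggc
Ltf: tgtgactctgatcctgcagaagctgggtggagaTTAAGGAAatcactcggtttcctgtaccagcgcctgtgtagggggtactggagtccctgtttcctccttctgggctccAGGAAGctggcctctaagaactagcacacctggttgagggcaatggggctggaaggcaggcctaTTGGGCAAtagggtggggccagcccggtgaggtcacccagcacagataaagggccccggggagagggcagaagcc
Lcn2: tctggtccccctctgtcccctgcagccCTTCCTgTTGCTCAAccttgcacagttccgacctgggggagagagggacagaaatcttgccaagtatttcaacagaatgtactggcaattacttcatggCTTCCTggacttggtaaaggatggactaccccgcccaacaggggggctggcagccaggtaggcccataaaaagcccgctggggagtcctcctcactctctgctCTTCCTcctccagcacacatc
Chil3: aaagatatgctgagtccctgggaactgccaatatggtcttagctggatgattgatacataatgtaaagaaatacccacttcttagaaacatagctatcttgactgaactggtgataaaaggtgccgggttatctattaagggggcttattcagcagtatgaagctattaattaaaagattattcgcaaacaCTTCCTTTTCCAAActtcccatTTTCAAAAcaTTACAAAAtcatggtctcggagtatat

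Levels are given in TPM, a transcript's share of its library with gene length taken into account, so levels of different genes can be compared within a library. No read totals accompany the table and the depth is unknown. The sort markers followed the labels: Kit stood at 72.2 and 64.9 TPM in the HSCP libraries and between 8.73 and 14.1 TPM in Ly6G+, and Ly6g at 187 and 90.1 TPM against 642 to 839.8 TPM. The HSCP libraries also carried abundant neutrophil transcripts, with the 8 neutrophil markers summing to 76830 and 70180 TPM against 220100 to 242800 TPM in Ly6G+. Most of each sum was S100a8 and S100a9, at 40970 and 36842 TPM and at 33242 and 31376 TPM in HSCP. Mean levels of single markers were from 2.71-fold (S100a9) to 16.6-fold (Retnlg) higher in Ly6G+. These 3 genes were named after their values were seen. Under Mdivi-1 in Ly6G+, 4 of the 8 neutrophil markers rose and 0 fell (limma, median log2 difference 0.20). Over all genes tested there, 2.46% were higher and 4.24% lower. The neutrophil sums overlapped, at 232100 and 220100 TPM with vehicle and 231300 and 242800 TPM with Mdivi-1. The Ly6G+ libraries also differed between treatments in transcripts of other cells. The summed level of 10 B cell markers was 143 and 144 TPM with vehicle and 22.65 and 23.4 TPM with Mdivi-1, and 9 of them fell. Of 7 basophil and mast cell markers 7 fell (505.5 and 513 against 169.6 and 179 TPM summed), and of 9 megakaryocyte markers 8 fell (277 and 274 against 125 and 108 TPM). Of 8 dendritic cell markers 4 fell and 1 rose (585 and 615 against 334 and 317 TPM). Most of that sum was Cd74 (343 and 380 against 183 and 185 TPM). Cd74, H2-Aa and H2-Eb1, genes of the MHC class II pathway named after their values were seen, were 3 of the 4 that fell. Of 9 stem and progenitor markers 3 fell (108 and 114 against 77.4 and 76.3 TPM), and of 11 erythroid markers 4 fell (3275 and 3361 against 2578 and 2620 TPM). Of 7 T and NK cell markers 1 rose and 1 fell, and the eosinophil sums overlapped (90.5 and 93.9 against 91.5 and 85.3 TPM). The part of these cells in the results below was not tested. In such bulk libraries, fewer cells of a type and less RNA per cell cannot be told apart.

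Camp, Ngp, Ltf, Lcn2, Chil3 and Lyz2 ranked between 4th and 13th among all genes in the Ly6G+ libraries. Cd177 ranked between 46th and 59th there, and Olfm4 between 909th and 1113th. Together the 8 members held 7.53% and 7.83% of all TPM in Ly6G+ with vehicle and 6.17% and 6.01% with Mdivi-1. In the HSCP libraries they held 3.33% with vehicle and 3.15% with Mdivi-1. The calgranulin genes S100a8 and S100a9, another abundant pair of neutrophil transcripts, held 20.93% and 19.69% with vehicle and 19.75% and 20.95% with Mdivi-1 in Ly6G+. So the share of the secondary granule genes was lower in both Mdivi-1 libraries than in both vehicle libraries, while the share of the calgranulins overlapped. In Ly6G+ with vehicle, Lyz2 (16745 ± 115 TPM, SD, n = 2), Ngp (14590 ± 1057), Camp (14305 ± 995) and Lcn2 (14137 ± 244) formed the top of the order. The per-library values of Camp and Ngp overlapped each other and those of Lcn2, so the order of these 3 is not settled. Ltf (7266 ± 182) and Chil3 (6404 ± 337) followed, then Cd177 (1617 ± 27.7) and Olfm4 (125 ± 4.81). In the HSCP libraries the order was another one. Camp led in both and ranked 4th among all genes of each, and Olfm4 was again the lowest member.

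**Figure D1:**
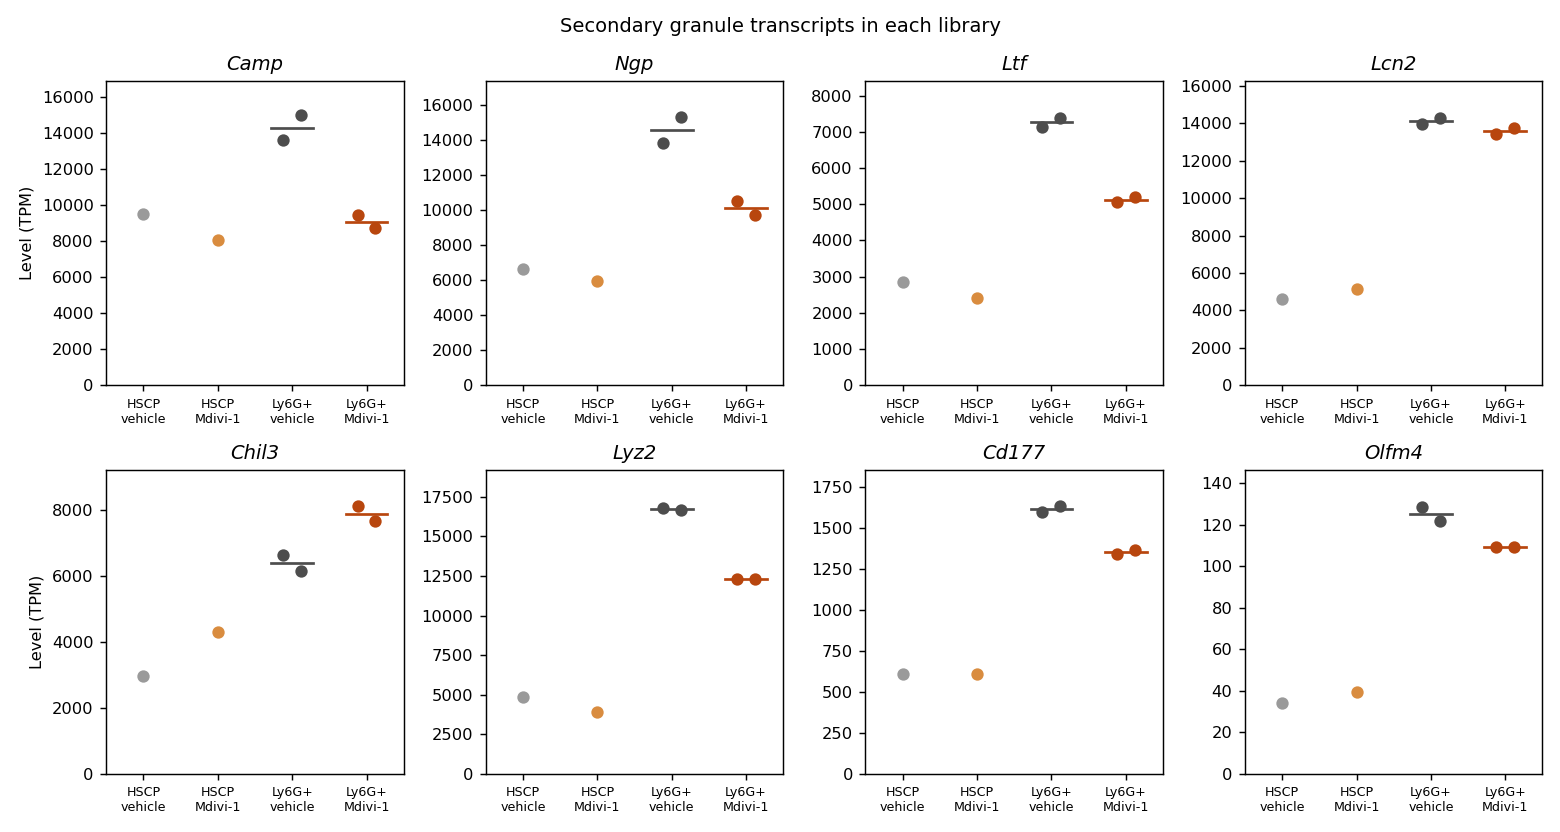
Level of each secondary granule transcript in TPM (vertical axes from 0, own scale per gene) in the 6 libraries, where a point is 1 library and a line the mean of a pair. In Ly6G+ the Mdivi-1 points lie below the vehicle points for every gene but Chil3, and they differ little for Lcn2.

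The Mdivi-1 comparison in Ly6G+ cells asks whether the treatment altered granule transcripts of the mutant neutrophil lineage. Camp, Ngp, Ltf, Lyz2 and Cd177 fell and Chil3 rose, while Lcn2 and Olfm4 did not pass. That is 5 of 8 members lower and 1 of 8 higher, against 4.24% of the 11775 genes tested lower and 2.46% higher, and 6.7% called in either direction. Higher calls made up 36.8% with the TPM unscaled, 49.9% if libraries were scaled by the median of ratios and 50.1% if by the upper quartile. The members' median log2 difference was -0.35, beside -0.05 over all genes tested. Because the members were chosen with earlier results of these data known, these contrasts with all genes are no independent test of the group. The test was limma on log2(TPM + 1), with p-values adjusted by the Benjamini-Hochberg method over all genes and a threshold of 0.05.

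Camp stood at 13601 and 15008 TPM with vehicle and at 9442 and 8723 TPM with Mdivi-1. The pairs did not overlap, and the Mdivi-1 mean was 63.5% of the vehicle mean. Its log2 difference was -0.65 (SE 0.068, limma adjusted p = 0.0134), the largest among the members. Ngp went from 13842 and 15337 TPM to 10535 and 9733 TPM, again without overlap. Its mean with Mdivi-1 was 69.5% of that with vehicle, a log2 difference of -0.52 (SE 0.07, limma adjusted p = 0.0232). Lactoferrin, Ltf, stood at 7137 and 7394.5 TPM with vehicle and at 5049 and 5206 TPM with Mdivi-1. The replicates of Ltf were closer together than those of Camp or Ngp, and its log2 difference was -0.50 (SE 0.044, limma adjusted p = 0.0088).

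Lyz2, the most abundant member with vehicle and second to Lcn2 with Mdivi-1, stood at 16826 and 16664 TPM with vehicle and at 12315 and 12316 TPM with Mdivi-1. The lysozyme pairs were tight in both arms, and the log2 difference was -0.44 (SE 0.037, limma adjusted p = 0.00787). Monocytes also make this enzyme. Of 14 monocyte and macrophage markers tested 2 rose and 2 fell, with sums of 2315 and 2288 TPM with vehicle and 2007 and 2038 TPM with Mdivi-1 and no marker at 0 in every library. The part of monocytes in the fall of Lyz2 was not tested. Lyz2 shares 32.8% of its 31-base words with its neighbour Lyz1, which was chosen for mention after its values were seen, and Lyz1 lay between 4.93 and 14.1 TPM in the 6 libraries. Cd177 was at 1597 and 1637 TPM with vehicle and at 1339.6 and 1367 TPM with Mdivi-1. The Cd177 fall was the smallest of the 5 (log2 difference -0.26, SE 0.044, limma adjusted p = 0.0403), and it did not pass after median-of-ratios scaling (-0.20, adjusted p = 0.0697) or upper-quartile scaling (-0.20, adjusted p = 0.0768).

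Chil3 went the other way, from 6642 and 6165 TPM with vehicle to 8127 and 7654 TPM with Mdivi-1. Both Mdivi-1 libraries lay above both vehicle libraries, and the log2 difference of 0.30 passed narrowly (SE 0.058, limma adjusted p = 0.0499). With a pseudocount of 0.1 or 5 TPM in place of 1, the Chil3 difference was again 0.30 and did not pass (adjusted p = 0.0517 and 0.0515). Of the 31-base words of Chil3, 58.5% are found in no other gene and 28.9% are shared with Chil4, a chitinase-like relative. Chil4 stood at 2.65 and 1.59 TPM with vehicle and at 6.27 and 5.27 TPM with Mdivi-1, and it rose as well (log2 difference 1.13, limma adjusted p = 0.0467). With a pseudocount of 0.1 TPM the Chil4 difference was 1.44 and did not pass (limma adjusted p = 0.0552). With one of 5 TPM it was 0.60 and passed (limma adjusted p = 0.0398). Reads of the 2 genes may be split between them, so the small Chil4 values are uncertain.

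Lcn2 stood at 13965 and 14309.9 TPM with vehicle and at 13416 and 13736 TPM with Mdivi-1. The arms did not overlap by a small margin, and the log2 difference of -0.06 did not pass (95% interval -0.16 to 0.04, limma adjusted p = 0.42). Olfm4 stood at 129 and 122 TPM with vehicle and at 109.5 and 109.5 TPM with Mdivi-1 (log2 difference -0.19, 95% interval -0.33 to -0.05 before adjustment, limma adjusted p = 0.118). For 8 of 8 members the arms did not overlap, but this held for 57.7% of all genes tested. Without vehicle library 1, 0 of 8 members and 42 of 11457 genes passed in limma, with 6 members and 2294 genes at an unadjusted p under 0.05. Without vehicle library 2, 0 of 8 members and 22 of 11449 genes passed in limma, with 7 members and 2017 genes at an unadjusted p under 0.05. Without Mdivi-1 library 1 there were 4 calls and without Mdivi-1 library 2 there were 3.

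**Figure D2:**
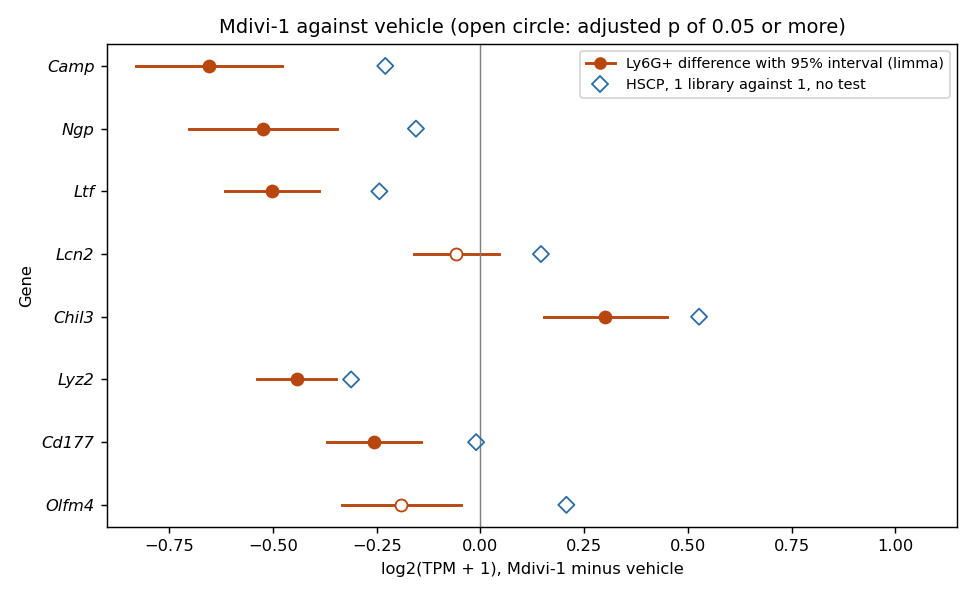
Difference in log2(TPM + 1) between Mdivi-1 and vehicle (horizontal axis) for each secondary granule gene (vertical axis), with limma's 95% interval in Ly6G+ (circles, 2 libraries against 2, open where the adjusted p was 0.05 or more) and the ratio of 1 HSCP library to another (diamonds, no test). In Ly6G+ the differences run from -0.65 for Camp to 0.30 for Chil3, and the HSCP diamond lies to the right of the circle for all 8 genes.

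Ratios between members within a library do not depend on how libraries are scaled. Relative to Lcn2, Camp stood at 0.974 and 1.05 with vehicle and at 0.704 and 0.635 with Mdivi-1 in Ly6G+. The same ratio for Ngp was 0.991 and 1.07 with vehicle and 0.785 and 0.709 with Mdivi-1. For Ltf it was 0.511 and 0.517 against 0.376 and 0.379, and for Lyz2 it was 1.21 and 1.16 against 0.918 and 0.897. So these 4 transcripts changed unequally with Lcn2 in every Ly6G+ library, each being lower relative to it under Mdivi-1. Cd177 relative to Lcn2 was also lower under Mdivi-1, at 0.09985 and 0.0995 against 0.1144 and 0.1144 with vehicle. The same held for Olfm4, at 0.008165 and 0.007969 against 0.009207 and 0.00851. Chil3 relative to Lcn2 was higher under Mdivi-1, at 0.606 and 0.557 against 0.476 and 0.431. Among the 3 chromosome 9 genes, Camp to Ngp was 0.983 and 0.979 with vehicle and 0.896 and 0.896 with Mdivi-1, lower in both Mdivi-1 libraries. Camp to Ltf was 1.91 and 2.03 with vehicle and 1.87 and 1.68 with Mdivi-1, also without overlap. Ngp to Ltf was 1.94 and 2.07 against 2.09 and 1.87, which overlap. No p-value is given for these ratios. They were chosen after the values were seen.

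**Figure D3:**
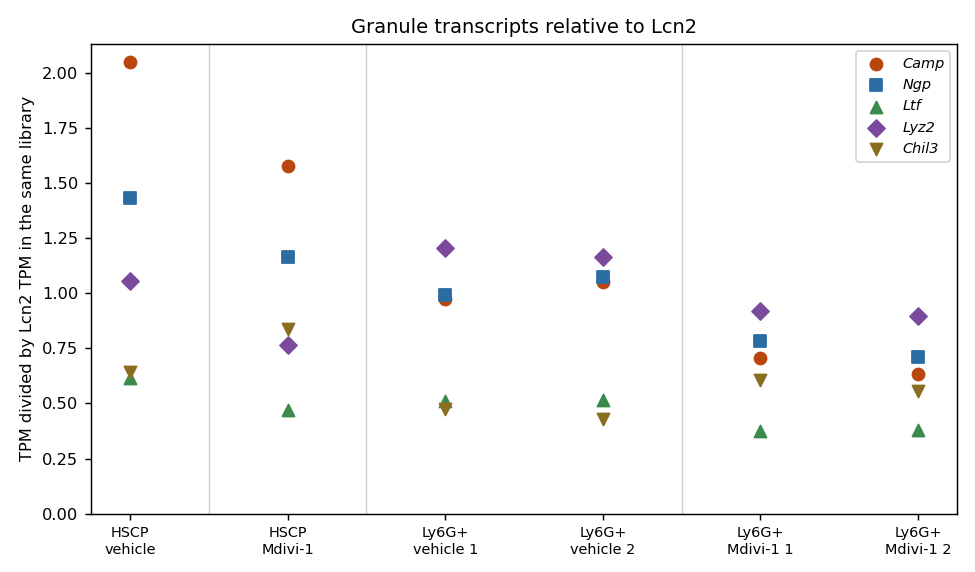
TPM of Camp, Ngp, Ltf, Lyz2 and Chil3 divided by the TPM of Lcn2 in the same library (vertical axis from 0) for each of the 6 libraries (horizontal axis), 1 point per gene and library. The Camp ratio is 2.05 and 1.58 in HSCP with vehicle and Mdivi-1 and between 0.635 and 1.05 in Ly6G+.

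In the HSCP libraries, 1 with vehicle and 1 with Mdivi-1, there is no replicate check and no test. Camp stood at 9477 and 8084 TPM with vehicle and Mdivi-1, Ngp at 6634 and 5956 TPM, and Ltf at 2851 and 2408 TPM. Lyz2 stood at 4880.2 and 3932 TPM, and Cd177 at 612 and 607 TPM. Lcn2 stood at 4632 and 5125 TPM, Chil3 at 2974 and 4286 TPM, and Olfm4 at 34.1 and 39.5 TPM. The log2 ratios were -0.31 for Lyz2, -0.24 for Ltf, -0.23 for Camp, -0.16 for Ngp, -0.01 for Cd177, 0.15 for Lcn2, 0.21 for Olfm4 and 0.53 for Chil3. A log2 ratio of 1 in size was reached by 0 of 8 members, against 0.927% of the 7987 genes with a mean of at least 10 TPM in this pair. The middle 90% of those genes lay between -0.35 and 0.33, and Chil3 lay outside that range. Markers of other cells also differed in this pair, with summed levels of 348 and 170.1 TPM for megakaryocytes, 702 and 399 TPM for eosinophils and 1198 and 717 TPM for dendritic cells with vehicle and Mdivi-1. Most of the eosinophil sum was Prg2 (595 and 331 TPM). Most of the dendritic sum was Cd74 (683 and 403 TPM), H2-Aa (269 and 160 TPM) and H2-Eb1 (213 and 123 TPM). Flt3, also on the dendritic list, went the other way (16.4 and 20.5 TPM). These genes were named after their values were seen. The log2 ratios of the 8 neutrophil markers ran from -1.04 (Ly6g) to 0.01 (Csf3r, the receptor for granulocyte colony-stimulating factor, named after its value was seen). The part of these differences in the members' ratios was not tested.

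Camp, Ngp, Ltf, Lyz2 and Cd177 were lower and Chil3 higher with Mdivi-1 in both populations, which makes 6 of 8 members with the same sign. The share with the same sign was 57.1% over 7982 genes. Lcn2 and Olfm4 had opposite signs, though the Ly6G+ value of Lcn2 was near 0 and turned to 0.0023 after upper-quartile scaling. The HSCP ratio of Cd177 was also near 0 (-0.01, from 1 library against 1), so its sign carries little and the count of 6 includes it. The difference of the treatment effects, HSCP minus Ly6G+, was tested with limma over all 6 libraries, with the lone HSCP libraries assumed to vary like those of Ly6G+. It was above 0 for 8 of 8 members, from 0.13 for Lyz2 to 0.40 for Olfm4 and 0.43 for Camp, beside an all-gene median of 0.08. None passed: 0 of 8 members and 0% of 12338 genes had a limma adjusted p under 0.05, with the members between adjusted p = 0.312 and adjusted p = 0.531. At an unadjusted p under 0.05 there were 6 of 8 members and 1398 genes (11.3%), but only 2 members under median-of-ratios scaling (1325 genes) or upper-quartile scaling (1306 genes), 1 with a prior neither trended nor robust (1263 genes), and 1 to 3 without 1 Ly6G+ library. A difference of the treatment effects between populations was therefore not shown for any member.

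Between populations, all 8 members were higher in Ly6G+ than in the HSCP libraries, against 22.2% of 12338 genes higher, 50.3% lower and 72.4% called in either direction. Higher genes made up 30.6% of the calls with the TPM unscaled, 50.2% if libraries were scaled by the median of ratios and 46.3% if by the upper quartile. All-gene values leaned the other way, with a median log2 difference of -0.35 on TPM as deposited, which became -0.01 after median-of-ratios scaling. The members' median was 1.25. Lyz2 differed most, from 4406 ± 671 TPM in the HSCP libraries (SD, n = 2, treatments pooled) to 14530 ± 2558 in Ly6G+ (SD, n = 4), a log2 difference of 1.71 (SE 0.049, limma adjusted p = 6.92e-06). Olfm4 went from 36.8 ± 3.83 to 117 ± 9.47 TPM (1.65, limma adjusted p = 2.38e-05) and Lcn2 from 4878 ± 349 to 13857 ± 377 TPM (1.51, limma adjusted p = 8.31e-06). Cd177 and Ltf were higher by 1.28 and 1.22, and Chil3 and Ngp by 0.99 and 0.95. For these 7 members each Ly6G+ library lay above both HSCP libraries, as it did for 23.5% of all genes.

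Camp was the exception. Its 8781 ± 985 TPM in HSCP and 11694 ± 3083 in Ly6G+ overlapped, since the HSCP vehicle library (9477 TPM) lay above both Ly6G+ libraries with Mdivi-1. The log2 difference was 0.38 (SE 0.104, limma adjusted p = 0.0152), and it became 0.17 (adjusted p = 0.141) without the HSCP vehicle library and 0.38 (adjusted p = 0.185) without the treatment covariate. Median-of-ratios and upper-quartile scaling raised it to 0.77 and 0.70 (adjusted p = 0.000374 and 0.000624). The ratio of Camp to Ltf was 3.32 and 3.36 in the HSCP libraries and 1.68 to 2.03 in Ly6G+, so the makeup of this gene group differed between the populations in each library.

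The other granule classes were described with gene lists, which were chosen with earlier results of these data known. Of 25 genes listed as other specific granule genes 23 were tested in Ly6G+ under Mdivi-1, and 3 rose, 2 fell and 18 did not pass (median -0.12, all genes -0.05). Ptx3 and Bpi, also on that list, stood at 0 in every library. Haptoglobin, Hp, went from 567 and 574 TPM to 865 and 880 TPM (log2 difference 0.61, limma adjusted p = 0.00589). Lrg1, a leucine-rich glycoprotein, rose by 0.48 (limma adjusted p = 0.0325), and the collagenase gene Mmp8, outside the naming rule and chosen after its value was seen, rose by 0.30 (limma adjusted p = 0.0305). Cybb, the catalytic chain of the phagocyte NADPH oxidase, fell by 0.37 (limma adjusted p = 0.0267), and the integrin-like gene Itgb2l fell by 0.32 (limma adjusted p = 0.0293). Between populations 20 of these 23 genes were higher in Ly6G+, 1 was lower and 2 did not pass, with a median of 1.30 beside the members' 1.25. The lower one was Stom, a membrane protein gene named after its value was seen.

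Primary granule genes belong to the preceding stage. Of 13 tested, 9 were lower in Ly6G+ than in HSCP (median -2.20) and 1 was higher, Ctsc, which encodes the protease activator cathepsin C (0.42, limma adjusted p = 0.00136) and was named after its value was seen. Under Mdivi-1 in Ly6G+ 1 rose and 1 fell (median 0.0003). Fcnb, a ficolin gene, went from 208 and 209 TPM to 112 and 115 TPM (log2 difference -0.87, limma adjusted p = 0.00449). Srgn, the granule proteoglycan serglycin that many blood cells express, rose by 1.04 (limma adjusted p = 0.00477). Mpo stood at 661 and 699.6 TPM with vehicle and at 705 and 727 TPM with Mdivi-1 (0.07, limma adjusted p = 0.438). The serine protease gene Prtn3 had a difference of 0.0002 (limma adjusted p = 0.999).

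Most genes on the list of tertiary granule and late neutrophil genes rose. Of 24 tested under Mdivi-1 in Ly6G+, 19 rose, 1 fell and 4 did not pass (median 0.64). Over all 11775 genes tested, 2.46% were higher and 4.24% lower. The matrix metalloprotease genes Mmp9 (0.10, limma adjusted p = 0.257) and Mmp25 (-0.11, limma adjusted p = 0.532) were among those that did not pass. Both were named after their values were seen. Il1r2, the interleukin-1 decoy receptor, rose by 2.53 (limma adjusted p = 0.000734) and Wfdc17 by 1.55 (limma adjusted p = 0.00544). Stfa2l1 and Stfa2 rose by 1.35 and 1.32 (limma adjusted p = 0.00267 and 0.00219), and as stefin genes of a family of similar copies their values are uncertain. The 1 that fell was Padi4, the histone-citrullinating enzyme of neutrophils (-0.53, limma adjusted p = 0.0208), named after its value was seen. Between populations 23 of 24 were higher in Ly6G+ (median 3.06), beside 8 of 8 members at a median of 1.25.

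**Figure D4:**
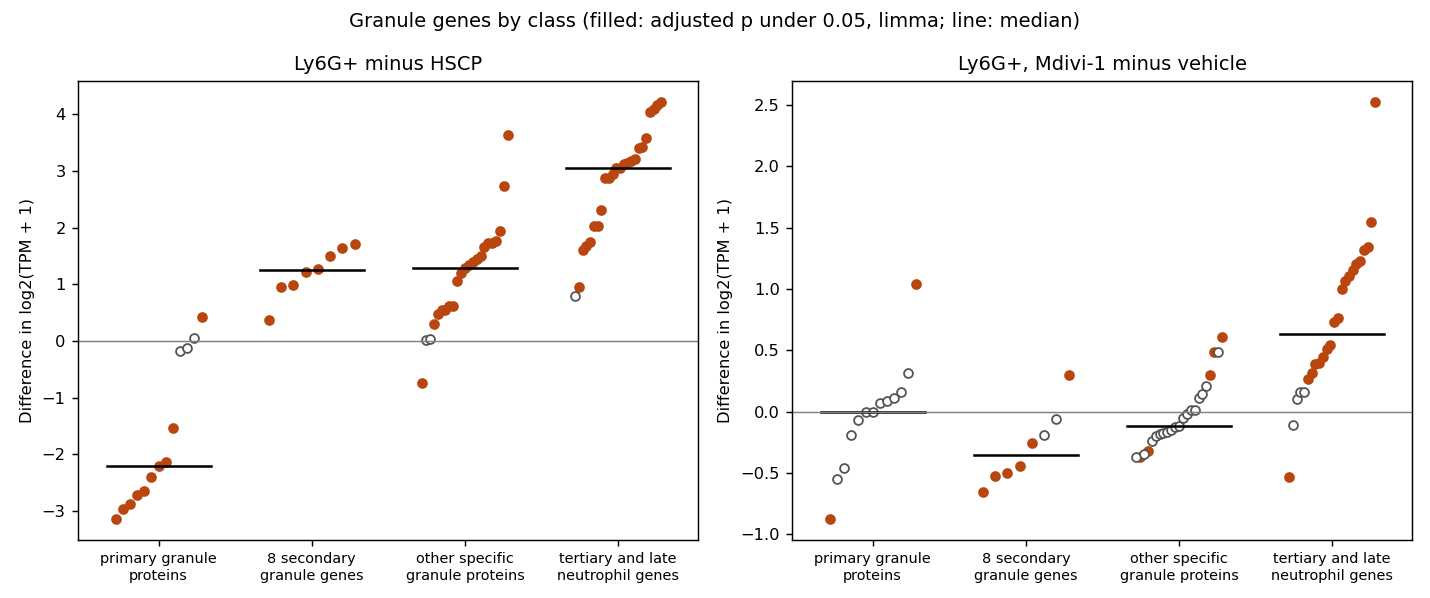
Difference in log2(TPM + 1) (vertical axes) of single genes in 4 classes of neutrophil genes (horizontal axis), between populations on the left and between treatments in Ly6G+ on the right. Each point is a gene, filled where limma's adjusted p was under 0.05, and a line is the class median, which on the right is 0.0003, -0.35, -0.12 and 0.64 from left to right.

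Among 17 granulocyte transcription factor genes tested under Mdivi-1 in Ly6G+, 2 fell, 0 rose and 15 did not pass (limma). The shares over all genes tested were 4.24% lower and 2.46% higher. Cebpe stood at 285 and 328 TPM with vehicle and at 201 and 167 TPM with Mdivi-1. These pairs did not overlap (log2 difference -0.74, SE 0.115, limma adjusted p = 0.0335), and the call held in 1 of 4 fits that left out a library. Irf8, a factor of the monocyte branch, fell by 0.59 (limma adjusted p = 0.0134). Spi1, which encodes PU.1, had a difference of -0.01 (limma adjusted p = 0.925) and Runx1 one of -0.13 (limma adjusted p = 0.457). Between populations Cebpe did not pass (0.11, limma adjusted p = 0.505), with 233 and 205 TPM in the HSCP libraries. Camp divided by Cebpe was 40.7 and 39.4 in HSCP and 47.8, 45.8, 47.1 and 52.3 in the Ly6G+ libraries. Other members followed Cebpe less closely. Ngp divided by Cebpe was 28.5 and 29.05 in HSCP and between 46.8 and 58.3 in Ly6G+. For Lcn2 the ratio was 19.9 and 25 in HSCP, 49.05 and 43.7 in Ly6G+ with vehicle, and 66.9 and 82.3 in Ly6G+ with Mdivi-1.

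Likeness was measured as the root mean square difference between log2(TPM + 1) profiles over the 6 libraries, each centred on its mean, among 7345 genes with a mean of at least 10 TPM. All profiles share the same libraries, so this is a description. Within the group, Lcn2 and Olfm4 were most alike (0.0931), followed by Ltf and Cd177 (0.124) and by Ngp and Ltf (0.14), and Camp and Olfm4 were least alike (0.643). Outside it, the genes nearest to Camp were Aldh2 (0.0589), Gpr84 (0.0622) and Ap5b1 (0.0686), and Cebpe stood 36th (0.138). For the other members Cebpe stood between 1582nd (Ngp, 0.406) and 3359th (Chil3, 0.635). Aldh2 encodes a mitochondrial aldehyde dehydrogenase and Gpr84 a receptor for medium-chain fatty acids. Nearest to Ngp were Ly6g5b (0.0556), Card10 (0.0616) and Pgam2 (0.0642), and nearest to Ltf Adpgk (0.0804), Mgst1 (0.0845) and Kif21b (0.0876). For Lcn2 they were Degs1 (0.0338), Lyst (0.0393) and Anxa1 (0.0533), and for Olfm4 Anxa1 (0.0507), Pag1 (0.0886) and Rap1gap2 (0.0914). Lyst is a regulator of lysosome-related organelles and Anxa1 encodes annexin A1, an abundant protein of neutrophils. Hgsnat, Map3k8 and Cask lay nearest to Chil3 (0.0751 to 0.083), Ifi204, Tob1 and Lgals3 to Lyz2 (0.0777 to 0.108), and Tinagl1, Prkcb and Sp140 to Cd177 (0.0424 to 0.0622).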

How the data were processed

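RNA sequencing of 6 libraries was used. The authors deposited 1 table of 28987 genes in TPM; library totals run from 963243.1 to 979168.3 and the values carry decimals. Reads went through bcl2fastq, CASAVA 1.8 and kallisto on build mm10, per the submitters' processing notes, with kallisto's version, annotation and strand setting not given in the sources used here. Symbols and positions came from GENCODE M21 (27458 genes matched), promoters from RefSeq GRCm38.p6. No 2 libraries held identical values (0 shared among genes of 1 TPM or more).

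For tests, log2(TPM + 1) values were fitted with limma 3.58.1 (R 4.3.3; prior trended and robust). A gene entered if 2 or more of the compared libraries reached 1 TPM, and Benjamini-Hochberg adjustment ran over all genes entered. Ly6G+ treatment used 4 libraries (2 residual degrees of freedom), populations 6 with treatment as covariate (3), and the interaction 6 (2). HSCP arms have 1 library each and no test. Fold changes are on the log2(TPM + 1) scale, which understates those of low genes. Scripts were tested on simulated data. The members and lists were chosen with earlier results of these data known. Named were the 8 members, Ly6g, Kit and Cebpe, up to 4 genes per list (those past the Ly6G+ test by size, then the most expressed) and the 3 genes most like each member. Words of 31 bases were counted in M21 transcripts on both strands. Alternatives were the pseudocount, scaling, filter, prior, replicate block, covariate and left-out libraries.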

Additional observations from a re-analysis of the deposited data

How the results depend on the processing

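In Ly6G+ the count of members past the threshold, 6 in the main analysis, was 3 with no expression filter, 3 with a replicate block and 0 with a prior neither trended nor robust (limma; 6 of 8 at an unadjusted p under 0.05 with that prior). Leaving out 1 library gave 0 to 4. All genes called, 789 in the main analysis (36.8% of them higher, 49.9% after median-of-ratios scaling), numbered 218, 325 and 346 under those settings in that order, and 22 to 279 without 1 library. The cause was not tested. Replicate numbers are not tied to mice or days in the labels, and deviations of same-numbered libraries correlated at -0.031 over 11775 genes, so the replicate block rests on a number alone.

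Camp, Ltf and Lyz2 each passed in 10 of 13 alternatives, Ngp in 7, Cd177 and Chil3 in 3, and Lcn2 and Olfm4 in 0, and of the members only Lcn2 changed direction, to 0.0023 after upper-quartile scaling. Spi1 turned to 0.044 and 0.048 under median-of-ratios and upper-quartile scaling. Without 1 library Spi1 ranged from -0.081 to 0.056 and Prtn3 from -0.078 to 0.079. Genes with a differing treatment effect between populations numbered 1 with a pseudocount of 0.1, 6 with one of 5 and 6 with a filter of 5 TPM, against 0 in the main analysis (limma, 1398 at an unadjusted p under 0.05), and 0 to 2 without 1 library. Read depth is unknown, so counting error could not be given, and with 2 libraries per arm a small difference such as that of Lcn2 or Olfm4 may go undetected.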
